A study of Mus musculus with 4 samples.

Results

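The chains that build the collagens were compared between OP9M2 and BFC012, a pair of mouse stromal cell lines. A gene was included when its symbol in the annotation of the Affymetrix mouse 430 2.0 array was that of a collagen alpha chain and at least 1 probe set named that gene alone. This gave 42 chains of 18193 genes, measured by 82 of 45037 probe sets. The other 3 of 45 listed chains (Col6a6, Col21a1 and Col28a1) were not analysed here. Each gene is represented by its brightest probe set, averaged over all 4 arrays, and 27 of the 42 chains had several.

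OP9M2, represented by 2 arrays, is a single clone of OP9 stroma with the characteristics of a mesenchymal stem cell line, and it maintains human hematopoietic stem and progenitor cells in co-culture. BFC012, also represented by 2 arrays, is a stromal line of mouse fetal liver that does not. Both lines were irradiated with 2000 rad and seeded at 25000 cells per cm2, and RNA was taken 48 hours later. OP9M2 grew in 20% serum and BFC012 in 10%, so the effects of line and serum cannot be told apart. No transgene, knockout or other agent is named for either line. The replicates are labelled biological, each from a single plate, and nothing more is said of how the cultures were separated, so the p-values measure only the spread between these arrays.

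Collagens are triple helices of 3 alpha chains, which may be alike or different, and they are sorted by the structure they form. Fibrillar collagens make the tensile fibres, type IV makes the sheet of basement membranes, FACIT collagens (fibril-associated collagens with interrupted triple helices) sit on the fibres, and others make beaded filaments, hexagonal lattices or anchors. The chains are modified and folded in the endoplasmic reticulum, trimmed by extracellular proteases and cross-linked by lysyl oxidases. In bone marrow and fetal liver they are part of the matrix on which stroma and blood-forming cells rest.

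Levels are given in log2 units, where 1 unit is a 2-fold change. They are natural logarithms of the deposited intensities, read as the log2 values of RMA, since the deposited values exceeded what the scanner can record. A level of 6.09, the 95th percentile of 81 probe sets for olfactory and related receptors, was taken as background. A chain was called when its adjusted p in limma, corrected over all probe sets, was below 0.05 and the lines differed by at least 1 unit. Where both arrays of the dimmer line were at or below background, the fold sets the brighter line against background and is a lower bound.

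The OP9M2 arrays stood further apart from each other than the BFC012 arrays. Across all probe sets the OP9M2 arrays correlated with r = 0.980 and the BFC012 arrays with r = 0.994, and across the 42 chains with 0.958 and 0.993. Arrays of unlike lines gave an r between 0.941 and 0.954 across all probe sets. Across the chains, the called ones included, it was between 0.780 and 0.796. These are correlations across genes, which are not independent replicates. The poly-A control transcripts, which are added to RNA before labelling, also differed: of 24 control probe sets 18 were above background on OP9M2 replicate 1 and 0 on replicate 2, against 13 and 12 on the BFC012 arrays. The part of this in the collagen levels was not tested.

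For 33 of the 42 chains the RefSeq promoter table (GRCm38.p6, 250 bases before to 50 after the annotated start) held 36 windows. Common promoter motifs were searched on both strands, with no weighting for where they lie: the CCAAT box (CCAAT or ATTGG), the TATA box (TATAAA or TTTATA) and the GC box (GGGCGG or CCGCCC). The windows shown are those of the called chains that had one, Col1a2, Col6a3 and Col8a2. Col2a1 is named only. Capitals mark the motifs.
Col1a2 lies on the plus strand at chr6:4505368-4505667, Col6a3 on the minus strand at chr1:90843922-90844221, and Col8a2 on the plus strand at chr4:126286544-126286843, each written 5′ to 3′ on the strand of its gene.
Col1a2: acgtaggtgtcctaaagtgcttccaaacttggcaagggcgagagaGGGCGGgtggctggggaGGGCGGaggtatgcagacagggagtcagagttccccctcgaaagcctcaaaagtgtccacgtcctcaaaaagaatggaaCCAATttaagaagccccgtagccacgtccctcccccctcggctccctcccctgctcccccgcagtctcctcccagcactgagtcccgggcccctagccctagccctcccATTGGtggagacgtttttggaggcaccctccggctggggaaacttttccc
Col6a3: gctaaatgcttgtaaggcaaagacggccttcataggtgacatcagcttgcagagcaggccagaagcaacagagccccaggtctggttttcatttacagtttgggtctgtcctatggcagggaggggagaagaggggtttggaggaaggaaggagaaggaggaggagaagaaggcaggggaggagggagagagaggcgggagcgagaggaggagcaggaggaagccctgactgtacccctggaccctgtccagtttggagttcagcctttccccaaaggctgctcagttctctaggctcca
Col8a2: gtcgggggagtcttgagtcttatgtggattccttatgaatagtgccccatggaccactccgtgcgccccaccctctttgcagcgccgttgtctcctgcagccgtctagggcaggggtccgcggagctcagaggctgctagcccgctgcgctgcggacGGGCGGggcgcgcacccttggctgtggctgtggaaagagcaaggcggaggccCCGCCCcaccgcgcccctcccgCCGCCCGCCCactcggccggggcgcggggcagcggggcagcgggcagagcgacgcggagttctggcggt
The Col1a2 window held 2 CCAAT boxes and 2 GC boxes. The Col8a2 window held 4 GC boxes, of which a pair overlapped, and the Col6a3 window held none of the searched letters. Over all chain windows a GC box was found in 22 of 36 (61.1%), against 35.7% of the 32851 windows in the table, a CCAAT box in 13 (36.1%, against 37.4%), and a TATA box in 5 (13.9%, against 13.6%). These matches are descriptions of the letters only.

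The lines differed in a few collagen chains, and in 3 of these by large amounts. The α2 chain of type I collagen, the chain of type II collagen and the α3 chain of type VI collagen were higher in OP9M2 by 268-fold (with only 1 of the 2 BFC012 arrays above background), at least 81.5-fold and 103-fold. The α2 chain of type VIII collagen was lower in OP9M2 by at least 1.26-fold, a bound set by a level close to background in BFC012. Each array measured RNA pooled over a culture, so fewer expressing cells and less RNA per cell cannot be told apart. Thus 3 of 42 chains (7.14%) were called higher, beside 2.36% of all genes, and 1 (2.38%) was called lower, beside 3.56% of all genes. The other 38 chains were not called by limma, and 9 of all 42 (21.4%) had an unadjusted p below 0.05, beside 23.3% of all genes. Of the 26 chains above background on both arrays of at least 1 line (64.8% of all genes were), 11.5% were called higher and 3.85% lower, beside 3.50% and 5.26% of all genes above background. Col1a2, Col2a1 and Col8a2 passed this filter only through the line where they were high. These shares therefore add no support to the calls. A further 13 chains were at or below background on all 4 arrays, and 3 were above it on some arrays only.

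The chains as a whole did not move in 1 direction. The median difference over the 42 chains was 0.11 units, and over all genes it was 0.032. The arrays of the lines did not overlap for 22 of 42 chains (52.4%), beside 53.2% of all genes, with 13 chains higher in OP9M2 (28.4% of all genes were) and 9 lower (24.8%). At the level of probe sets, 5 of 82 were called higher (1.80% of all probe sets were) and 2 were called lower (2.66% were), 7 together, beside 4.46% of all probe sets. All 3 probe sets of Col1a2 are among the 5, so this count repeats a gene.

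**Figure D1:**
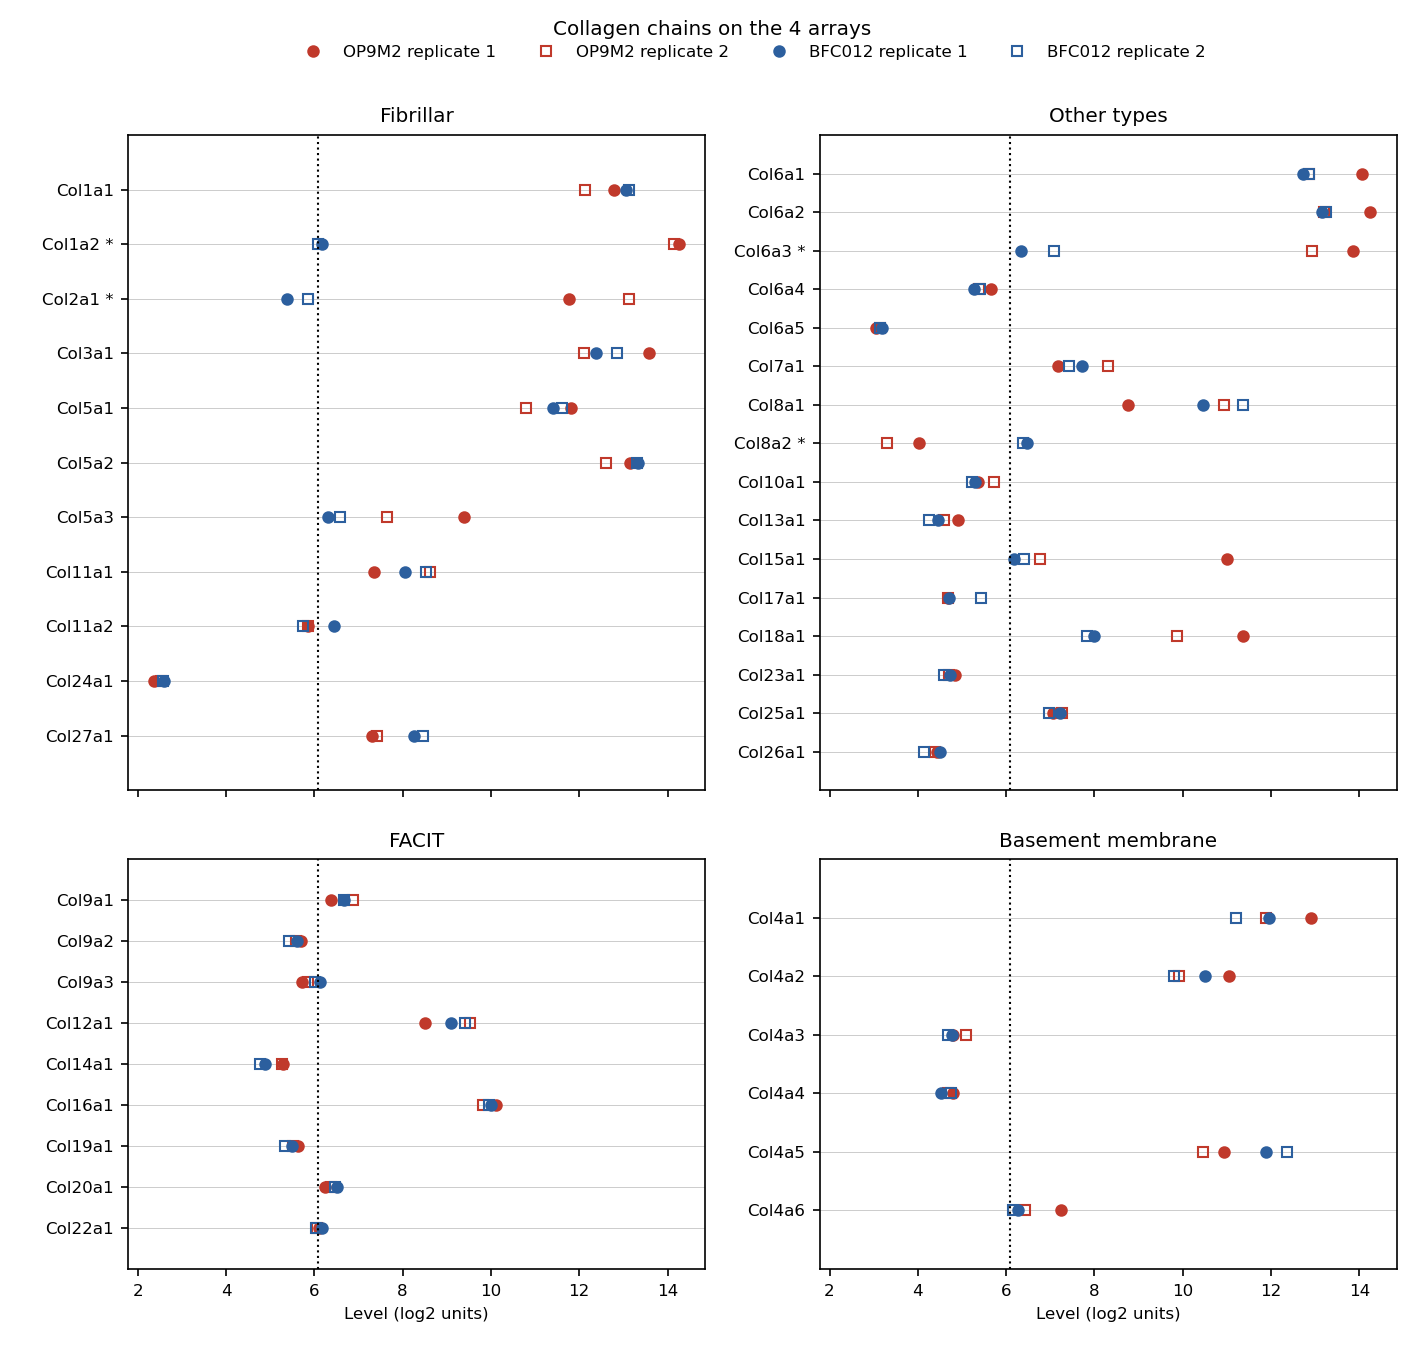
Level of each of the 42 collagen chains on the 4 arrays in log2 units, grouped by collagen class; filled circles are replicate 1, open squares replicate 2, red is OP9M2 and blue BFC012. The dotted line is the background level of 6.09 and an asterisk marks the 4 called chains; Col1a2, Col2a1 and Col6a3 stand far to the right in OP9M2, while Col8a2 lies left of background there.

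Among the 11 fibrillar chains, 2 were called higher, 0 lower, and the median difference was -0.21 units. Col1a2 encodes the α2 chain of type I collagen, the main fibre of bone, tendon and skin. Its level was 14.25 and 14.14 in OP9M2 replicates 1 and 2, against 6.18 and 6.07 in BFC012. The BFC012 arrays were within 0.1 units of background. The difference was 8.07 ± 0.14 units (SE, n = 2 arrays per line, limma adjusted p = 0.00105, 95% interval 7.70 to 8.43). Both other Col1a2 probe sets were called higher as well, at 13.06 and 13.53 in OP9M2 against 3.90 and 4.16 in BFC012 (at least 147-fold), and at 7.97 and 7.72 in OP9M2 against 3.30 and 3.62 in BFC012 (at least 3.36-fold).

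The partner chain did not follow. Col1a1, which supplies the α1 chains of the same molecule, was at 12.78 and 12.14 in OP9M2, with 13.06 and 13.12 in BFC012. The difference of -0.63 ± 0.25 units did not pass the test (SE, limma adjusted p = 0.278, 95% interval -1.30 to 0.03), nor did that of the other Col1a1 probe set (-0.50, limma adjusted p = 0.316). The gap between the lines was 8.70 ± 0.28 units wider in Col1a2 than in Col1a1 (SE over arrays, 2 per line). An exact two-sided permutation test of 2 arrays against 2 has 6 arrangements and cannot go below p = 0.333, the value found here (0.381 after adjustment over the 8 pairs of partner chains compared).

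Col2a1 encodes the only chain of type II collagen, the fibre of cartilage. It was at 11.76 and 13.12 in OP9M2, against 5.38 and 5.86 in BFC012, where both arrays were below background. The difference was 6.82 ± 0.50 units (SE, limma adjusted p = 0.00688, 95% interval 5.50 to 8.15). OP9M2 replicate 2 was 1.37 units above replicate 1, a gap far smaller than that between the lines.

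Col3a1 encodes type III collagen, which mixes with type I in soft tissues. It was at 13.59 and 12.10 in OP9M2, with 12.38 and 12.85 in BFC012. The arrays overlapped, and the difference was 0.23 ± 0.53 units (SE, limma adjusted p = 0.883, 95% interval -1.19 to 1.65). Type V collagen starts and sizes the fibres. Its chain Col5a1 was at 11.81 and 10.78 in OP9M2, with 11.41 and 11.62 in BFC012 (-0.21, limma adjusted p = 0.838), and Col5a2 at 13.16 and 12.60 in OP9M2, with 13.34 and 13.30 in BFC012 (-0.44, limma adjusted p = 0.401). These 3 chains, with Col1a1, were at least 4 units above background in both lines.

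Col5a3, a less common chain of type V, was at 9.39 and 7.64 in OP9M2, with 6.30 and 6.58 in BFC012. The arrays did not overlap, but the OP9M2 arrays lay 1.76 units apart, and the difference of 2.08 ± 0.61 units was not called (SE, limma adjusted p = 0.169). With 1 OP9M2 array left out, the remaining one is assumed to vary like the BFC012 pair, so the gap between the OP9M2 replicates does not enter the test. Under this assumption Col5a3 was called, at 1.20 units without replicate 1 and 2.96 without replicate 2, and the other Col5a3 probe set was below background on all arrays. Col27a1, a fibrillar chain of cartilage, was at 7.30 and 7.43 in OP9M2, with 8.25 and 8.46 in BFC012. This difference of -0.99 ± 0.15 units had a limma adjusted p of 0.0437 and missed the minimum of 1 unit. The other Col27a1 probe set, at 5.86 and 5.91 in OP9M2 against 8.22 and 8.38 in BFC012, was called lower (-2.41 ± 0.14, at least 4.61-fold, limma adjusted p = 0.00401), a wider gap than that of the brighter probe set. Without OP9M2 replicate 2 the difference of the brighter one was -1.06 units.

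Type VI collagen forms beaded microfilaments around cells from the α1, α2 and α3 chains. Col6a3 was at 13.87 and 12.93 in OP9M2, with 6.33 and 7.09 in BFC012. All 4 arrays were above background, those of BFC012 by 1 unit or less. The difference was 6.69 ± 0.42 units (SE, limma adjusted p = 0.00468, 95% interval 5.57 to 7.81).

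The partners of Col6a3 were high in both lines. Col6a1 was at 14.07 and 12.87 in OP9M2, with 12.72 and 12.85 in BFC012 (0.68 ± 0.42, limma adjusted p = 0.482), and Col6a2 at 14.24 and 13.20 in OP9M2, with 13.16 and 13.24 in BFC012 (0.52 ± 0.37, limma adjusted p = 0.55). Both had a high OP9M2 replicate 1 and a replicate 2 at the level of BFC012. Without OP9M2 replicate 2 their differences were 1.28 and 1.04 units. Without replicate 1 the Col6a2 difference was -0.0031. The gap between the lines was 6.01 ± 0.34 units wider in Col6a3 than in Col6a1 and 6.17 ± 0.35 wider than in Col6a2, each at the smallest exact permutation p of 0.333. Col6a1 and Col6a2 are neighbours on chromosome 10, and Col6a3 lies on chromosome 1. Col6a4 and Col6a5, alternatives to the α3 chain, were below background on all arrays.

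The hexagonal lattice of type VIII collagen, found under endothelia and in vessel walls, is built from Col8a1 and Col8a2. Col8a2 was at 4.03 and 3.30 in OP9M2, with 6.47 and 6.39 in BFC012. The OP9M2 arrays were below background and the BFC012 arrays less than 0.5 units above it. The measured difference was -2.77 ± 0.28 units (SE, limma adjusted p = 0.0154, 95% interval -3.50 to -2.03). Col8a1 was at 8.75 and 10.93 in OP9M2, with 10.46 and 11.38 in BFC012, so that the OP9M2 replicates were further apart (2.18 units) than the line means (-1.08 ± 0.80, limma adjusted p = 0.564). Without OP9M2 replicate 2 its difference was -2.17 units, and without replicate 1 it was 0.014. The gap of Col8a2 minus that of Col8a1 was -1.69 ± 1.54 units (SE over arrays, exact permutation p = 0.667). The smallest possible exact permutation p with 2 arrays per line is 0.333, so the test cannot decide whether the gaps differ. The Col8a2 levels of OP9M2 in this contrast were below background, so its size cannot be read either. The related Col10a1 of growth plate cartilage was below background.

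All 4 calls needed both BFC012 arrays. With BFC012 replicate 1 left out, limma called 0 of 42 chains and 0 of 45037 probe sets, and 8 chains and 4568 probe sets had an unadjusted p below 0.05. With replicate 2 left out it again called 0 of each, and 7 chains and 4517 probe sets had an unadjusted p below 0.05. The differences themselves stayed between 8.01 and 8.12 units for Col1a2, 6.58 and 7.06 for Col2a1, 6.31 and 7.07 for Col6a3, and -2.80 and -2.73 for Col8a2, with adjusted p between 0.0826 and 0.245. With either OP9M2 array left out all 4 were still called.

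**Figure D2:**
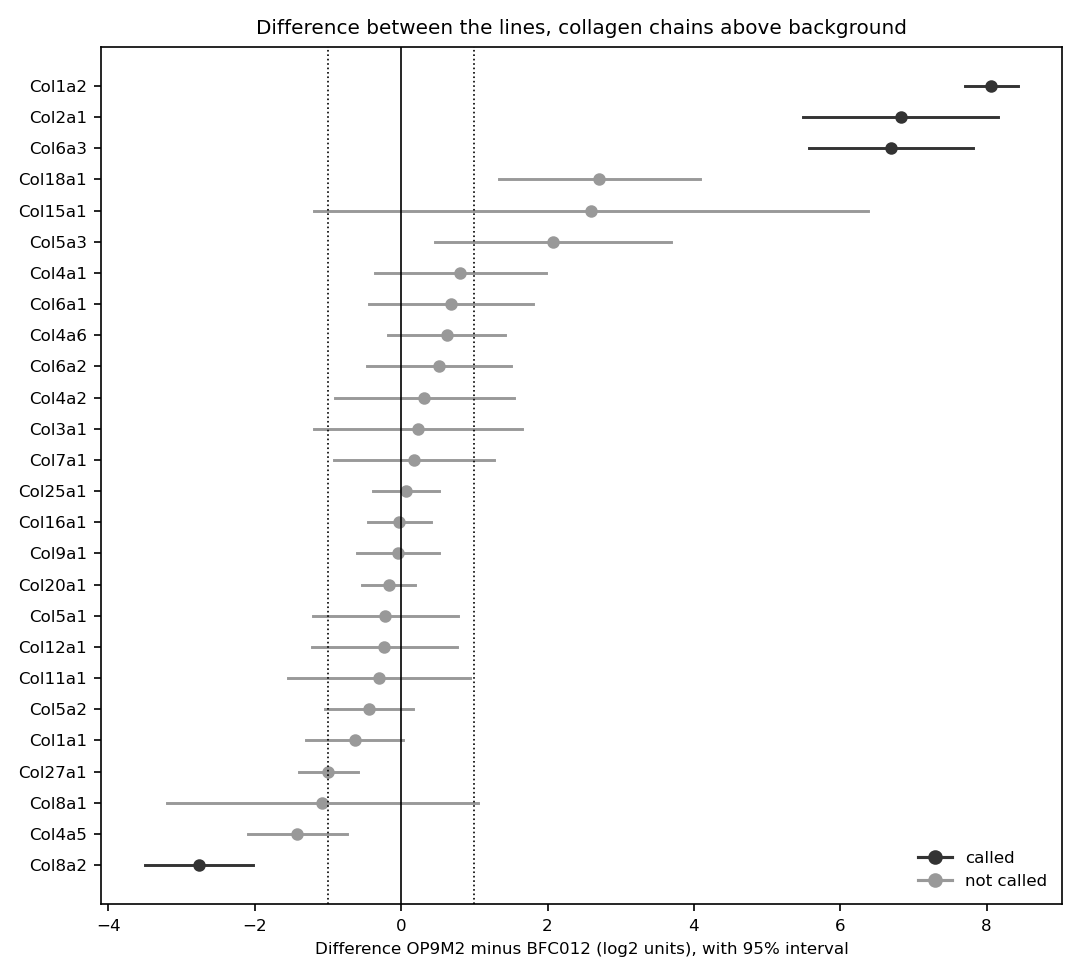
Difference OP9M2 minus BFC012 in log2 units, with its 95% interval, for the 26 chains above background on both arrays of at least 1 line, sorted by size; dark points were called and grey points were not. The dotted lines mark 1 unit in either direction; Col1a2, Col2a1 and Col6a3 have intervals that start above 5 units, and the wide interval of Col15a1 runs from -1.19 to 6.37.

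Of the 6 basement membrane chains 0 were called by limma, 1 had an unadjusted p below 0.05 and 4 were above background. Col4a1 and Col4a2 form the common type IV molecule and share a divergent promoter on chromosome 8. Col4a1 was at 12.89 and 11.89 in OP9M2, with 11.96 and 11.20 in BFC012 (0.81 ± 0.44, limma adjusted p = 0.427). Col4a2 was at 11.04 and 9.91 in OP9M2, with 10.52 and 9.81 in BFC012 (0.31 ± 0.46, limma adjusted p = 0.801). Both chains were highest in OP9M2 replicate 1 and in each line higher in replicate 1, and without OP9M2 replicate 1 or BFC012 replicate 2 the difference of Col4a2 turned to -0.25 or -0.038.

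Col4a5 and Col4a6, neighbours on the X chromosome whose chains join in the basement membranes of smooth muscle and some epithelia, had differences of opposite sign. Col4a5 was at 10.94 and 10.47 in OP9M2, with 11.89 and 12.36 in BFC012. The arrays did not overlap, and the difference of -1.42 ± 0.26 units had a limma adjusted p of 0.0626. The other Col4a5 probe set gave -1.68 ± 0.28 (limma adjusted p = 0.0525), and without OP9M2 replicate 1 the first gave -1.65 units. Col4a6 was at 7.24 and 6.43 in OP9M2, with 6.27 and 6.15 in BFC012 (0.62 ± 0.30, limma adjusted p = 0.373). Its difference was 1.02 units without OP9M2 replicate 2. The gap of Col4a5 minus that of Col4a6 was -2.04 ± 0.34 units (SE over arrays). The exact permutation p was 0.333, the smallest possible, so the test cannot decide whether the gaps differ. Col4a6 was close to background in BFC012, and its other probe set was above background only on OP9M2 replicate 1. Col4a3 and Col4a4, the chains of the glomerular basement membrane, were below background.

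Of the 9 FACIT chains 0 were called by limma and 1 had an unadjusted p below 0.05 (Col14a1, below background on all arrays). Their differences ran from -0.29 to 0.46 units with a median of -0.024, and 4 were above background. The ends of this range were Col9a3, above background on 1 array, and Col14a1. The 4 above background ran from -0.23 to -0.024 units. The chains best above background were Col12a1, which bridges fibres in tendon and ligament, and Col16a1, a minor chain of skin and cartilage fibres. Col12a1 was at 8.52 and 9.52 in OP9M2, with 9.10 and 9.40 in BFC012, and Col16a1 at 10.11 and 9.81 in OP9M2, with 10.00 and 9.96 in BFC012. In both, the arrays of the lines overlapped.

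The multiplexins Col15a1 and Col18a1 attach basement membranes to the matrix, and Col18a1 is the precursor of endostatin. Col18a1 was at 11.36 and 9.86 in OP9M2, with 7.99 and 7.82 in BFC012. The arrays did not overlap, and the difference was 2.71 ± 0.52 units (SE, limma adjusted p = 0.0709, 95% interval 1.33 to 4.09). The other probe set gave 2.43 ± 0.63 (limma adjusted p = 0.135). With 1 OP9M2 array left out, and its gap to the other thus kept out of the test, Col18a1 was called, at 1.96 units without replicate 1 and 3.46 without replicate 2.

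Col15a1 was at 11.01 and 6.76 in OP9M2, with 6.18 and 6.40 in BFC012. Only OP9M2 replicate 1 was more than 1 unit above background, and the replicates of OP9M2 were 4.25 units apart, the widest such gap among the 42 chains. The difference of 2.59 ± 1.42 units was not called (SE, limma adjusted p = 0.431). It was 0.47 without OP9M2 replicate 1 and 4.72 without replicate 2.

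The replicates of OP9M2 lay far apart in several collagens. They were at least 1 unit apart in 14 of 42 chains (33.3%), beside 7.40% of all genes, and in 53.8% of the chains above background, beside 10.2% of all genes above background. Replicate 1 was the higher in 9 of these chains (Col3a1, Col4a1, Col4a2, Col5a1, Col5a3, Col6a1, Col6a2, Col15a1 and Col18a1) and replicate 2 in 5 (Col2a1, Col7a1, Col8a1, Col11a1 and Col12a1). The replicates of BFC012 were that far apart in 0 of 42 chains, beside 0.566% of all genes, with a largest gap of 0.91 units in Col8a1.

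**Figure D3:**
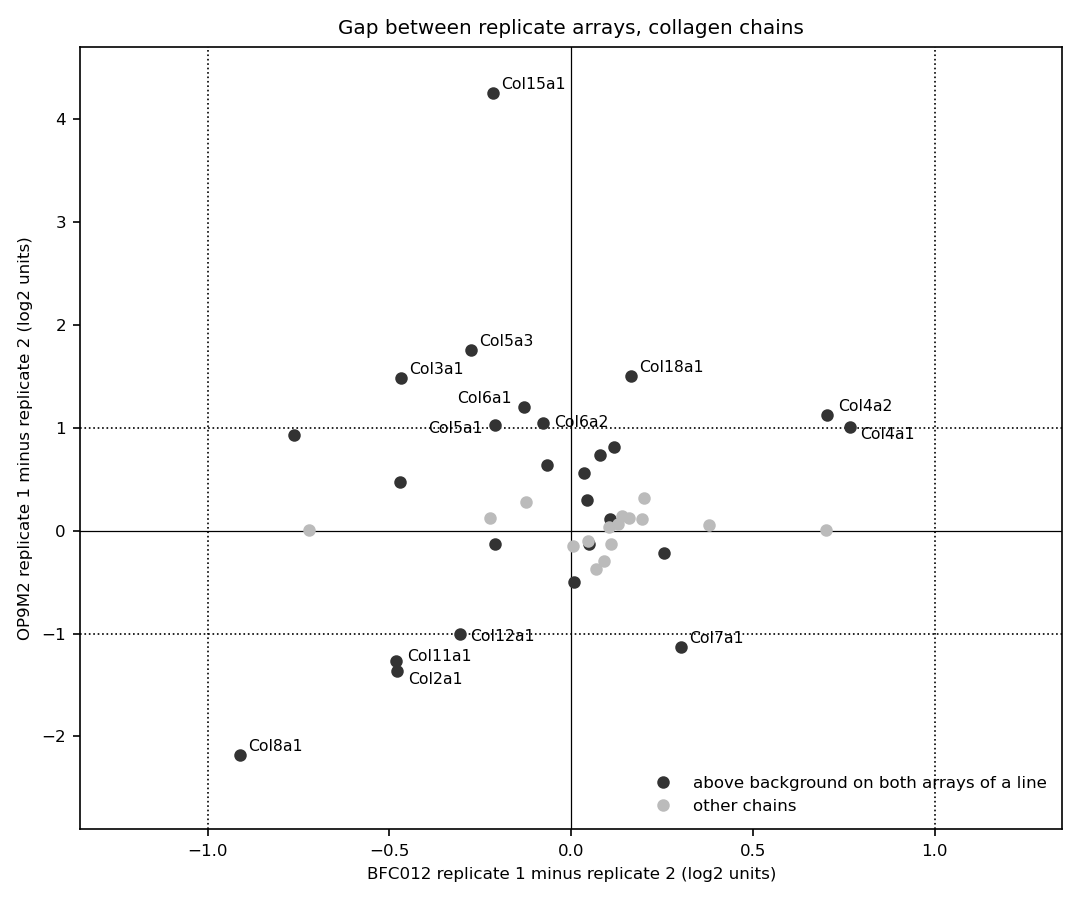
Gap between replicates 1 and 2 of OP9M2 (vertical axis) against the same gap in BFC012 (horizontal axis), in log2 units, 1 point per collagen chain; dark points were above background on both arrays of a line and the dotted lines mark 1 unit. The 14 chains named lie beyond 1 unit in OP9M2, with Col15a1 at 4.25 and Col8a1 at -2.18, and every chain lies within 1 unit in BFC012.

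The labelled identity of the lines was checked with marker genes. Of 10 mesenchymal markers 9 were above background on both arrays of each line, and Thy1 on none, with mean levels over the list of 11.2 to 11.3 in OP9M2 and 10.8 to 10.9 in BFC012. Single markers of the list differed more than these means. Pdgfra (3.37, limma adjusted p = 0.0513) and Pdgfrb (2.18, limma adjusted p = 0.109) were higher in OP9M2. Nt5e was lower (-1.68, limma adjusted p = 0.176), and none of them was called. Of 5 hematopoietic markers 1 was above background on both OP9M2 arrays (Laptm5) and 2 on both BFC012 arrays (Laptm5 and Spi1), while Ptprc, Cd52 and Coro1a were above it on none. In each line 1 of 5 endothelial markers (Kdr), 1 of 4 hepatocyte markers (Ttr) and 1 of 5 skeletal muscle markers (Des) were above background on both arrays, while Pecam1, Cdh5, Alb, Afp, Myod1 and the others were above it on none. Of 5 epithelial markers 2 were above background on both OP9M2 arrays (Epcam and Krt19) and 4 on both BFC012 arrays (these with Cdh1 and Krt8), with mean levels of 6.15 to 6.65 in OP9M2 and 7.28 to 7.77 in BFC012. Cdh1, the adhesion molecule E-cadherin, was at 3.50 and 3.39 in OP9M2, against 7.71 and 8.30 in BFC012, and was called lower by at least 3.76-fold (-4.56 ± 0.24, limma adjusted p = 0.00328). Epcam was at 10.32 and 9.20 in OP9M2, against 8.73 and 8.90 in BFC012, and was not called (0.94 ± 0.40, limma adjusted p = 0.307). The part of these markers in the collagen differences was not tested.

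Of the enzymes and chaperones that make collagen, those called were Bmp1, Adamts3 and Loxl3. Of 36 listed genes 32 were measured. In OP9M2, 1 (3.12%) was called higher, beside 2.36% of all genes, 2 (6.25%) were called lower, beside 3.56%, and 29 were not called, with a median difference of -0.042 units. The called genes act outside the cell, but shares this near those of all genes single out no step. P3h2, which acts inside the cell, had the largest difference of the uncalled genes.

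Bmp1 and Adamts3, proteases that trim procollagen, were lower in OP9M2. Bmp1, which removes the C-terminal propeptide of the fibrillar collagens, was at 8.50 and 8.22 in OP9M2, with 10.10 and 10.16 in BFC012. It was 3.40-fold lower in OP9M2 (-1.77 ± 0.16, limma adjusted p = 0.0117). A further Bmp1 probe set was called lower at -1.80 units, and the last was below background on all arrays. Adamts3, which removes the N-terminal propeptide, in particular of type II procollagen, was at 4.31 and 4.17 in OP9M2, with 7.00 and 7.33 in BFC012. It was lower by at least 2.10-fold (-2.93 ± 0.18, limma adjusted p = 0.00426), while its other probe set was below background on all arrays. Pcolce, which enhances the action of Bmp1, was at 13.58 and 13.63 in OP9M2, with 13.56 and 13.89 in BFC012 (-0.12, limma adjusted p = 0.801).

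Among the lysyl oxidases, which cross-link the fibres, Loxl3 was at 10.87 and 10.57 in OP9M2, with 9.55 and 9.69 in BFC012. It was 2.14-fold higher in OP9M2 (1.10 ± 0.17, limma adjusted p = 0.0447), close to both limits of the call. Without OP9M2 replicate 1 the Loxl3 difference was 0.94 and no longer called. Loxl1 was at 11.98 and 11.25 in OP9M2, with 10.09 and 10.06 in BFC012 (1.54 ± 0.27, limma adjusted p = 0.0598). Its other probe set was called higher at 1.22 units. The difference of the first was 1.18 without OP9M2 replicate 1 and 1.91 without replicate 2. Lox itself was at 13.52 and 14.13 in OP9M2, with 13.84 and 13.88 in BFC012 (-0.038, limma adjusted p = 0.966).

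Of the intracellular enzymes, P4hb, a subunit of prolyl 4-hydroxylase, was at 13.49 and 13.33 in OP9M2, with 13.18 and 13.52 in BFC012 (0.061, limma adjusted p = 0.913). P3h2, a prolyl 3-hydroxylase that acts on type IV collagen, was at 5.95 and 7.44 in OP9M2, with 8.84 and 8.82 in BFC012. The difference of -2.14 ± 0.51 units was not called (limma adjusted p = 0.114). It was -1.39 without OP9M2 replicate 1 and -2.88 without replicate 2. Bmp1, Adamts3 and Loxl3 were not called with either BFC012 array left out, with adjusted p between 0.0964 and 0.382.

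Of 11 listed collagen receptors 10 were measured. At their brightest probe sets limma called 0, beside 5.91% of all genes. Of the 10, 5 had an unadjusted p below 0.05, beside 23.3% of all genes. Among these 5 was an integrin subunit below background on all arrays. The discoidin domain receptors, tyrosine kinases that bind the collagen triple helix, had differences of opposite sign that fell just short of the call. Ddr2 was at 11.83 and 11.28 in OP9M2, with 10.02 and 10.27 in BFC012 (1.41 ± 0.24, limma adjusted p = 0.053), and its other probe set was called higher (1.51, limma adjusted p = 0.0197). Ddr1 was at 10.34 and 9.78 in OP9M2, with 11.33 and 11.43 in BFC012 (-1.32 ± 0.23, limma adjusted p = 0.0557). Of the other Ddr1 probe sets 1 was called lower (-1.02, limma adjusted p = 0.0481).

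With 1 OP9M2 array left out, the Ddr2 difference was 1.14 without replicate 1 and 1.68 without replicate 2. That of Ddr1 was -1.60 and -1.04. Itgb1, the β1 subunit shared by the collagen-binding integrins, was at 10.79 and 10.90 in OP9M2, with 11.10 and 11.58 in BFC012 (-0.50, limma adjusted p = 0.311). Mrc2, which takes up collagen fragments, was at 11.52 and 10.75 in OP9M2, with 10.21 and 10.20 in BFC012 (0.93 ± 0.29, limma adjusted p = 0.186). Without OP9M2 replicate 2 its difference was 1.32 units.

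**Figure D4:**
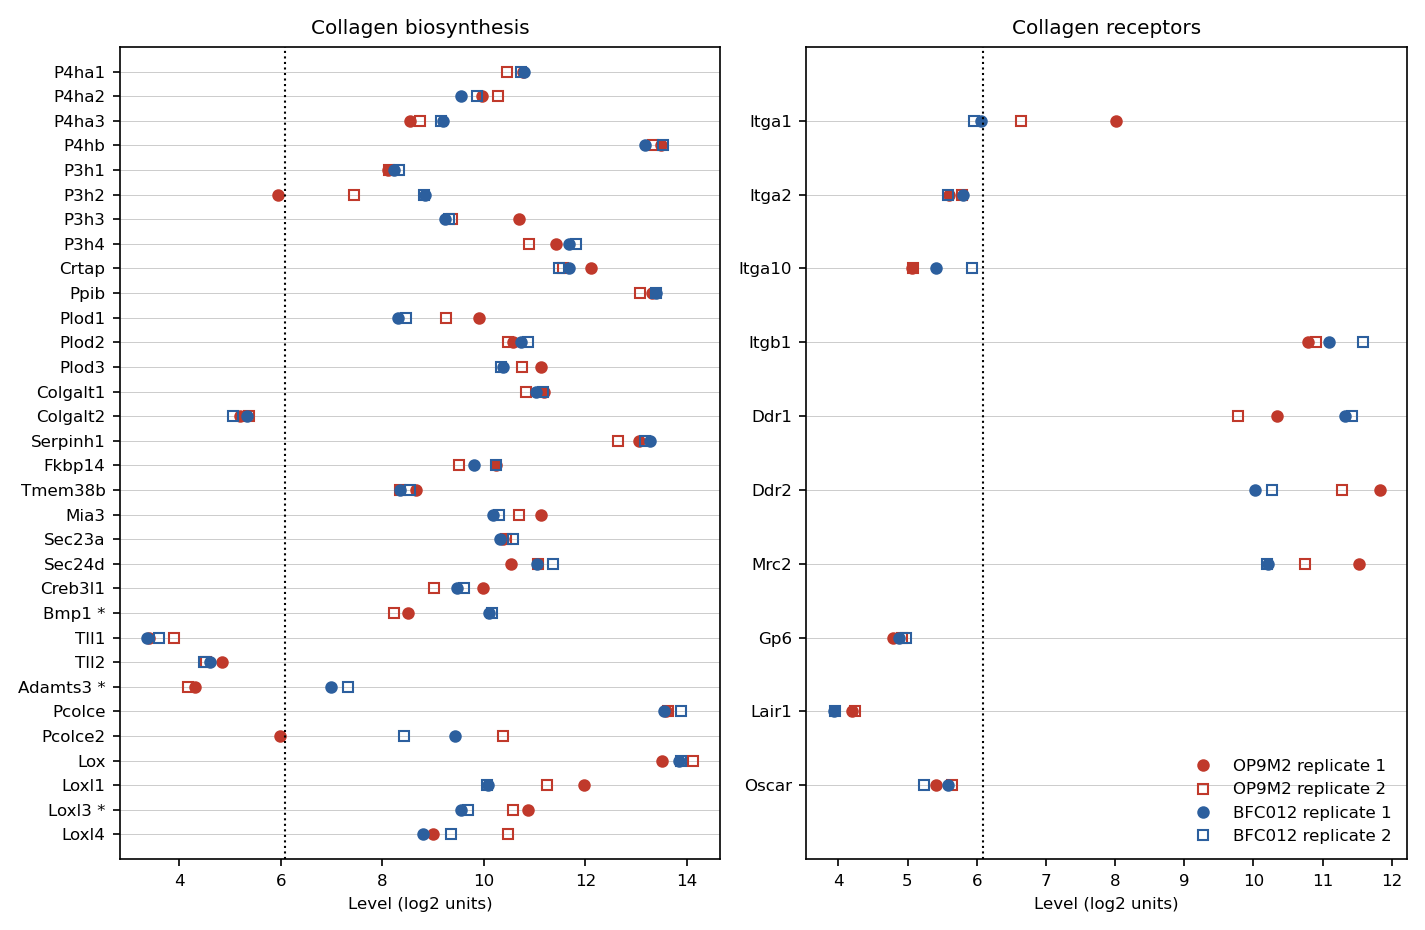
Level on the 4 arrays in log2 units of the 32 collagen biosynthesis genes (left) and 10 collagen receptors (right), with OP9M2 in red, BFC012 in blue, replicate 1 as filled circles and replicate 2 as open squares. The dotted line is background and an asterisk marks a called gene; Bmp1 and Adamts3 lie lower and Loxl3 higher in OP9M2, and no receptor is marked.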

How the data were processed

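RNA of 2 OP9M2 and 2 BFC012 cultures was amplified with an Ambion kit and hybridized to 4 arrays. The authors processed the scans with RMA and affy, with versions not given in the sources used here, and deposited 1 intensity per probe set and array. Between 6.31% and 6.57% of the deposited values of an array exceeded 65535, the scanner maximum, and their natural logarithms ran from 2.06 to 14.9. For this reason the natural log of a deposited intensity was taken as its RMA log2 value. The base used by the authors is not stated. The hybridization controls rose by 0.839 on this scale per doubling of the spike and by 1.21 on log2 of the deposited values. On that other scale each difference is 1.44 times larger with the same p.

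Of 45101 probe sets, 64 controls were left out. Of the 45037 tested, 34945 named 1 gene, 932 several and 9160 none. Values were fitted in R 4.3.3 by limma 3.58.1 (functions lmFit and eBayes without covariates, 2 residual and 2.50 prior degrees of freedom), two-sided, with Benjamini-Hochberg adjustment over all probe sets. The script was tested on simulated data in which both lines had the same spread. That test therefore did not cover the wider spread of the OP9M2 arrays. The number of arrays limits the precision. Promoter sequences are from RefSeq.

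The members, gene lists and tests were chosen with earlier results of these data known. All called chains and all called genes of the biosynthesis and receptor lists were named. Of the uncalled chains, those named have a called probe set, a difference of at least 2 units, both lines at least 4 units above background, or a called partner of the same type; other names (among them Col4a6, Col7a1, Col11a1, Col12a1, Col16a1, the receptor Mrc2 and the chains near or below background) were added after their values were seen. Of the uncalled genes of the other lists, those named are the 3 with the highest mean and the 2 with the largest difference. Alternatives were log2 of the deposited values, quantile normalization, a filter on dim probe sets, a trended robust prior, replicate number as a block, leaving out each array, no minimum difference and the mean of the probe sets of a gene.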

Additional observations from a re-analysis of the deposited data

How the results depend on the processing

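Col1a2, Col2a1 and Col6a3 were called higher under every alternative run except leaving out a BFC012 array. Of these alternatives, log2 of the deposited values and no minimum difference could not lose a call, since p stays the same. The number of chains called lower was 2 on log2 of the deposited values, 2 with a filter on dim probe sets, 2 with no minimum difference, 3 with the mean of the probe sets of a gene, and 0 with the replicate number as a block, where the adjusted p of Col8a2 was 0.0535. With the filter Col18a1 (adjusted p = 0.0467) and Col4a5 (0.0469) were also called, 2 biosynthesis genes were called higher, 1 receptor higher and 1 lower, and 4 collagen probe sets lower. With the trended robust prior 0 biosynthesis genes were called higher. With the mean of the probe sets 2 biosynthesis genes and 1 receptor were called higher. With the replicate block 0 biosynthesis genes were called higher and 1 lower, 1 collagen probe set lower, and 140 of all genes higher and 280 lower, beside 429 and 647 without it. The labels do not say whether arrays of the same replicate number share a batch. The deviations of same-numbered arrays correlated at -0.10, a single value over all probe sets that cannot decide this for single genes. With the numbers crossed as a block, a setting chosen after seeing the data, 2 chains and 4 collagen probe sets were called lower and 0 biosynthesis genes higher.

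Leaving out 1 array leaves its line with a lone array, which is assumed to vary like the other line, so a call gained without an OP9M2 array rests on the closer BFC012 pair. It gave 0 to 9 chains called higher and 0 to 3 lower, 0 to 15 collagen probe sets higher and 0 to 6 lower, 0 to 4 biosynthesis genes higher and 0 to 4 lower, 0 to 3 receptors higher and 0 to 1 lower, and 0 to 1177 of all genes higher and 0 to 1139 lower. The zeros came without a BFC012 array and the highest counts, other than for lower receptors, without OP9M2 replicate 2. Of the 35 genes followed through the alternatives, the sign turned for 12, none of them called with all 4 arrays. Over the 4 settings the difference ran from -0.51 (without OP9M2 replicate 1) to 0.98 for Col3a1, -0.25 (without OP9M2 replicate 1) to 0.88 for Col4a2, -0.73 to 0.30 (without OP9M2 replicate 2) for Col5a1, -0.0031 (without OP9M2 replicate 1) to 1.04 for Col6a2, -0.39 (without OP9M2 replicate 2) to 0.74 for Col7a1, -2.17 to 0.014 (without OP9M2 replicate 1) for Col8a1, -0.94 to 0.33 (without OP9M2 replicate 1) for Col11a1, -0.73 to 0.27 (without OP9M2 replicate 1) for Col12a1, -0.17 to 0.13 (without OP9M2 replicate 2) for Col16a1, -0.34 to 0.27 (without OP9M2 replicate 1) for Lox, -0.28 to 0.049 (without BFC012 replicate 2) for Pcolce and -0.11 (without BFC012 replicate 1) to 0.24 for P4hb. Without BFC012 replicate 1 Col3a1 also turned, to -0.0008, as did Col4a2 without BFC012 replicate 2 (-0.038) and P4hb without OP9M2 replicate 1 (-0.015). With quantile normalization Col16a1 was at 0.036. The causes were not tested.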
